A study of Zea mays with 74 samples.

Results

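The regions described here differed in DNA methylation between teosinte and modern maize. They are the 4972 differentially methylated regions (DMRs) of the deposited table that carry the teosinte-maize label, in every sequence context, out of 6389 DMRs in all. The other regions of the table separate teosinte from landraces (1043 DMRs) or landraces from maize (374 DMRs). A DMR is a run of neighbouring cytosines whose methylation, read by whole-genome bisulfite sequencing (WGBS), differed between a pair of populations.

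Teosinte (Zea mays ssp. parviglumis), the wild ancestor of maize, was represented by 20 plants grown in a greenhouse and sampled at the third leaf of the seedling. It was set against 14 modern maize inbred lines whose methylomes were downloaded from earlier work. No treatment or transgene was part of either group. Teosinte plants came from a natural population and the maize lines are inbred, and the 2 sets of methylomes were made in different studies, so that population, breeding system and study cannot be told apart. The Mexican landraces (17 plants) enter only where the other comparisons of the table are set beside this one. Each comparison has 1 list of regions called over whole populations, with no value for a single plant and no replicate, and the table gives position, context and comparison but not which population was more methylated. The intervals below therefore cover counting error only, and since neighbouring DMRs are not independent they are too narrow, and the p-values too small. In the paper's own counts, most CG and most CHG regions of this comparison were less methylated in maize.

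Plants methylate cytosines that are followed by G (CG), those with G one base further on (CHG), and those with neither (CHH, with H standing for A, C or T). CG methylation is copied at each replication by the maintenance enzyme MET1, and CHG methylation is kept by chromomethylases that bind histone H3 carrying the repressive H3K9 methyl mark, which the methylated DNA in turn attracts. CHH sites are not mirrored on the other strand, so their methylation must be set anew, much of it by RNA-directed DNA methylation, which in maize is concentrated in short stretches close to genes.

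CHG regions were the most numerous and the longest, and CHH regions the fewest and the shortest. There were 2372 CHG DMRs (47.7% of the 4972), 1545 CG DMRs (31.1%) and 1055 CHH DMRs (21.2%). A CHG DMR had a median length of 458 bp (quartiles 279 and 744 bp). The median CG DMR had 333 bp (quartiles 212 and 539 bp), and the median CHH DMR had 109 bp (quartiles 72 and 173 bp). The order of lengths thus follows that of the counts, and the upper CHH quartile lay below the lower CHG quartile. The study required a minimum number of cytosines in a DMR and set a largest distance between adjacent ones. Lengths in bp may therefore also depend on how closely the cytosines of a context lie, which was not analysed here. The study named a minimum methylation difference for CG and CHG and none for CHH, so the counts of CHH regions and of the other contexts may rest on different rules. The DMRs that the paper reports are CG and CHG regions only. It found the vast majority of CHH sites unmethylated and left them out of its population genetic analysis. The CHH regions described here are thus in the deposited list but not among the paper's results.

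All DMRs together covered 1879 kb once overlaps were counted a single time, which is 0.0892% of the 2105 Mb of the 10 chromosomes. CHG regions covered 1415 kb, CG regions 634 kb and CHH regions 153 kb. A few regions were far longer than the rest. The 3 longest CHG DMRs were chr3:30084764-30089221 (4457 bp), chr6:124562331-124566627 (4296 bp) and chr1:173111-177287 (4176 bp). The 3 longest CG DMRs were chr1:278895434-278898312 (2878 bp), chr5:45878484-45881210 (2726 bp) and chr8:15278073-15280580 (2507 bp). In CHH they were chr9:86783303-86785956 (2653 bp), chr2:129374658-129376907 (2249 bp) and chr7:79128878-79130729 (1851 bp), each over 10 times as long as the median CHH region. Positions are those of the B73 AGPv4 genome as deposited.

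The teosinte-maize list had a larger share of CHH regions than both lists that involve landraces. CHH made up 21.2% of the teosinte-maize DMRs (95% interval 20.1 to 22.4%), against 22 of 1043 teosinte-landrace DMRs (2.11%, 1.33 to 3.18%), an odds ratio of 12.5 (two-sided Fisher's exact test, Benjamini-Hochberg adjusted over 4 comparisons, p = 3.43e-66). Against the landrace-maize list, with 15 CHH of 374 DMRs (4.01%, 2.26 to 6.53%), the odds ratio was 6.45 (same test, adjusted p = 5.59e-20). The balance of the other contexts moved less. CHG regions were 60.6% of the CG and CHG regions together in teosinte-maize and 57.8% in teosinte-landrace, a difference of 2.77 points that did not pass the test (odds ratio 1.12, Fisher's exact test, adjusted p = 0.115). The landrace-maize share was lower, at 52.4% (odds ratio 1.40, Fisher's exact test, adjusted p = 0.00378). The lists share plants, the 20 teosintes with the teosinte-landrace list and the 14 maize lines with the landrace-maize list. Both other lists also rest on the 17 landraces. The paper names lower sequencing depth as a possible reason for slightly higher methylation in landraces. Whether the CHH shares reflect the teosinte-maize pair or the landrace methylomes therefore cannot be told apart here.

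The CG and CHG medians of length were also higher in teosinte-maize, while the CHH medians lay closer to each other. The median CG length was 333 bp, against 260 bp in teosinte-landrace and 244 bp in landrace-maize. The median CHG length was 458 bp, against 332.5 bp and 298.5 bp in those lists. The CHH medians were 109 bp in teosinte-maize, 109.5 bp in teosinte-landrace and 94 bp in landrace-maize. These lengths were not tested.

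Over the 10 chromosomes there were on average 2.36 DMRs per Mb, with 1.13 CHG, 0.734 CG and 0.501 CHH DMRs per Mb, or 1 DMR of any context in each 423 kb. No chromosome was free of any context, and the densest carried at most 1.71 times the density of the sparsest. Chromosome 4 was densest in both CG and CHG. It had 232 CG DMRs, 0.939 per Mb (0.822 to 1.07), against 106 on chromosome 8, the sparsest in CG, with 0.585 per Mb (0.479 to 0.708), a ratio of 1.60 (1.27 to 2.04). In CHG it had 335 DMRs, 1.36 per Mb, against 171 on chromosome 6 with 0.982 per Mb, a ratio of 1.38 (1.14 to 1.67). The chromosomes of each ratio were picked as the extremes of these counts, which the intervals of the ratios do not allow for.

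CHH regions followed another order, in which the top place rested on a single window. Chromosome 8, the poorest in CG, had the most CHH regions per Mb, with 125 CHH DMRs or 0.690 per Mb (0.575 to 0.823), and chromosome 1 was the poorest, with 124 CHH DMRs on a far longer sequence, 0.404 per Mb (0.336 to 0.481). Their ratio was 1.71 (1.32 to 2.21), again between chromosomes picked as the extremes. Without the 1-Mb window with the most CHH regions, chromosome 8 had 108 CHH DMRs (0.5999 per Mb) and came after chromosome 5, with 147 (0.657 per Mb, 1.63 times chromosome 1). By the length they covered, CHH regions were also denser on chromosome 5, at 101.8 bp per Mb, than on chromosome 8, at 93.0 bp per Mb. CHH regions were 30.0% of the 416 DMRs of chromosome 8 (25.7 to 34.7%) and 24.7% of the 596 DMRs of chromosome 5 (21.3 to 28.3%), and between 19.02% and 21.6% on each of the other 8 chromosomes. Chromosome 8 was the only one with more CHH than CG regions (1.18 CHH per CG DMR, against 0.569 to 0.747 on the others).

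**Figure D1:**
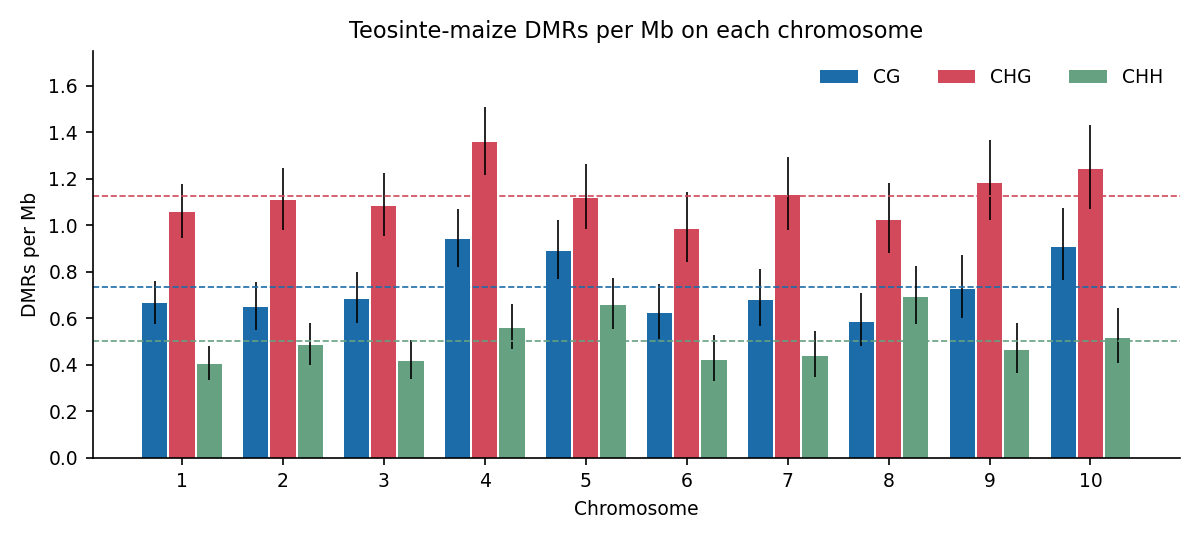
Density of teosinte-maize DMRs on each chromosome, in DMRs per Mb, by context; error bars are 95% Poisson intervals of the counts and dashed lines the density over all 10 chromosomes. Chromosome 4 stands highest in CG and CHG, and chromosome 8 lowest in CG and, through 1 window with 17 CHH DMRs without which chromosome 5 leads, highest in CHH.

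With the 10 chromosomes put together, the DMRs of every context were densest a little before the middle, though single chromosomes varied. When each chromosome was divided into 10 deciles of equal length, DMRs of any context numbered 3.18 and 3.21 per Mb in deciles 4 and 5, against 1.72 per Mb in both deciles 2 and 7. CHG density was highest in decile 4, at 1.53 per Mb (1.37 to 1.71), and lowest in decile 2, at 0.850 (0.730 to 0.984). CG density was highest in decile 5, at 0.974 per Mb (0.845 to 1.12), and lowest in decile 7, at 0.513 (0.421 to 0.619). CHH had its extremes in the same deciles as CG, at 0.741 (0.629 to 0.867) and 0.290 per Mb (0.222 to 0.372). In each context the intervals of the highest and the lowest decile did not overlap. These deciles were picked as the extremes of the same counts, so this is not a test of a difference.

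Deciles 4 and 5, 20% of the length, held 25.9% of CG DMRs (23.7 to 28.2%), 26.8% of CHG DMRs (25.04 to 28.6%) and 29.2% of CHH DMRs (26.5 to 32.0%). They were denser than the rest of their chromosome on 7 of 10 chromosomes for CG and on 9 of 10 for CHG and for CHH. Deciles 4 and 5 are the densest in the pooled counts of these same chromosomes. These shares and counts of chromosomes therefore follow in part from the choice of deciles and are no separate evidence. The densest decile was decile 4 or 5 on 4 of 10 chromosomes for CG, 5 for CHG, 6 for CHH and 8 with the contexts pooled. Decile 4 or 5 was the sparsest on 2 chromosomes for CG, 2 for CHH and none for CHG. Decile 5 of chromosome 4 was denser than any other decile of any chromosome, with 148 DMRs (5.99 per Mb), of which 60 were CG and 61 CHG. The ends of the chromosomes had a smaller rise, with 2.17 DMRs per Mb in decile 1 and 2.43 in decile 10. Centromeres and genes are not marked in the tables, so the deciles say only where on the sequence a DMR lay.

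**Figure D2:**
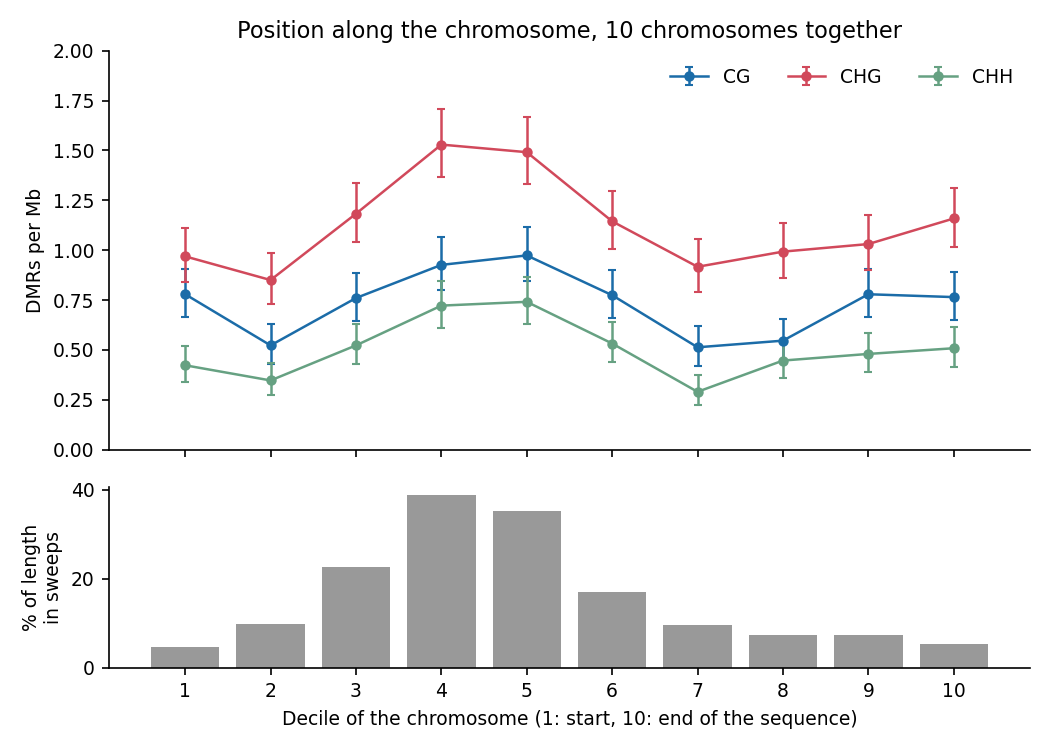
Upper panel, DMRs per Mb in each decile of the chromosome, by context, with 95% Poisson intervals; lower panel, percent of the sequence of each decile in teosinte-maize selective sweeps. Both are highest in deciles 4 and 5, where sweeps cover 38.8% and 35.2% of the sequence.

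On the scale of 1 Mb the DMRs were unevenly scattered. Of 2111 windows, 579 (27.4%) held no DMR, while 50 windows with 10 or more held 12.4% of all DMRs. The variance of the count over windows was 1.88 times its mean for CHG, 1.84 times for CHH and 1.56 times for CG. Regions scattered at one even rate would give a ratio near 1. For all contexts the ratio was 3.16, but that count enters a place called in both CG and CHG more than once. The 4972 DMRs made 4175 loci once overlaps were joined, so the pooled ratio cannot be set beside 1. Windows without a DMR made up 55.4% for CG, 44.1% for CHG and 67.7% for CHH.

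**Figure D3:**
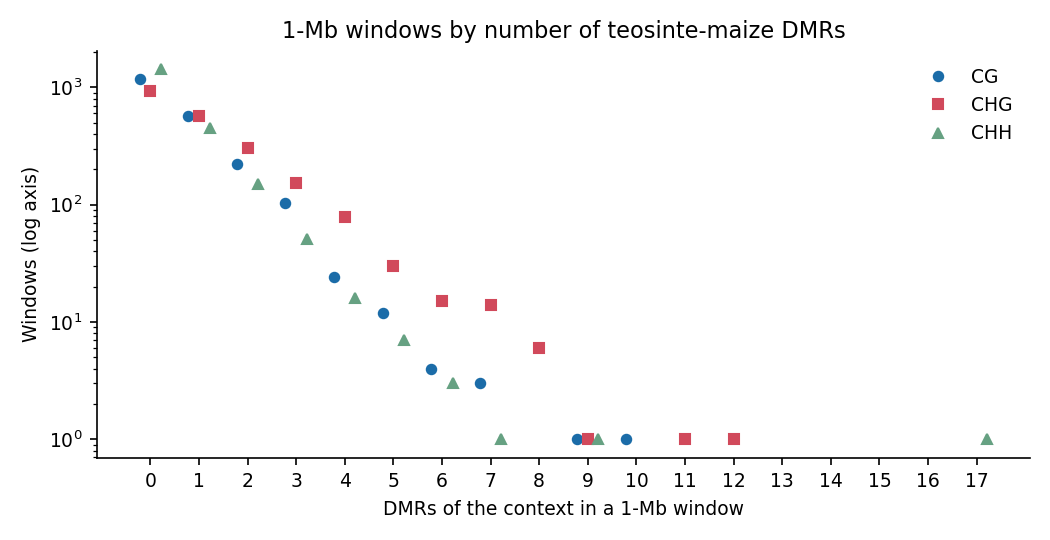
Number of 1-Mb windows (log axis) against the number of DMRs of a context that they held, for CG, CHG and CHH; counts that no window had are not drawn. CHG windows reached 12 DMRs and CG windows 10, and 1 CHH window with 17 lies far from the next, with 9.

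A pair of windows shared the top place with 31 DMRs each, and they differed in their mix of contexts, in the length of their regions and in their cover by sweeps. The first Mb of chromosome 1 held 10 CG, 12 CHG and 9 CHH DMRs, the most of any window in both CG and CHG. Its CG and CHG regions were long, with medians of 809.5 bp and 906.5 bp, and 8 of the 10 CG regions overlapped a region of another context. Its CG regions lay within 228 kb of each other, between 176352 and 404173, while the CHH regions extended to 717168 and only 2 of the 9 were within 1 kb of another context. Selective sweeps are stretches whose allele frequencies differ between populations more than elsewhere in the genome, as after selection. Teosinte-maize sweeps covered 5% of this window.

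The window of chromosome 8 at 98 to 99 Mb held 7 CG, 7 CHG and 17 CHH DMRs, the most CHH regions of any window. Its 17 CHH regions ran from 98242948 to 98978741 and had a median of 143 bp (45 to 709 bp). None of them overlapped a CG or CHG region, and 3 lay within 1 kb of one. As on chromosome 1, most CG regions (5 of 7) overlapped another context. Sweeps covered 98.5% of the window, and each of its 31 DMRs lay in a sweep.

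The next windows repeated this contrast in part. At chr9 60 to 61 Mb there were 21 DMRs (6 CG, 8 CHG, 7 CHH) in a window wholly in sweeps. At chr9 36 to 37 Mb there were 20 (7 CG, 11 CHG, 2 CHH), with 40% of the window in sweeps. At chr4 101 to 102 Mb, next to the top in CG, 9 of the 15 DMRs were CG. The window at chr2 76 to 77 Mb, among the top 3 in CHG, held 9 CHG DMRs and 1 CHH DMR and no CG DMR, the most CHG regions found without CG.

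Most DMRs, by a small margin, overlapped another DMR or lay within 10 kb of one. When DMRs of any context no more than 10 kb apart were joined, 2577 (51.8%, 50.4 to 53.2%) fell into 1077 clusters and 2395 stood alone. Most clusters were pairs (789), 202 held 3 DMRs, 60 held 4 and 26 held 5 or more. The median cluster spanned 1092 bp. CG and CHG together made up 682 clusters (63.3%), CHG alone 134 (12.4%) and all 3 contexts 93 (8.64%), while 42 held CHH regions only and 12 CG regions only. CG regions were in clusters most often (60.6%, 58.1 to 63.0%), then CHG (55.9%, 53.8 to 57.9%), and CHH regions least (30.0%, 27.2 to 32.8%). Regions of different contexts called at the same place enter these shares. Of CG regions 49.8% overlapped a CHG region, and of CHG regions 32.1% overlapped a CG region. Neighbours of the same context were less frequent. Within 10 kb they were found for 12.04% of CG, 26.8% of CHG and 11.4% of CHH regions.

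The largest clusters, of 9 DMRs each, lay in the dense windows of chromosomes 4 and 8, and both overlapped a sweep by at least 1 bp. The cluster chr4:101146976-101173461 opened with a CHG region of 1168 bp that held a CG region of 562 bp wholly inside it, went on through 4 more CG regions and another CHG region, and ended in 2 CHH regions of 121 and 86 bp. The cluster chr8:98614249-98633282 held 5 CHH, 2 CG and 2 CHG regions. A pair of its CHH regions, of 709 and 106 bp, was separated by a single position. DMRs covered 13.7% of the cluster on chromosome 4 and 13.1% of that on chromosome 8.

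Coverage varied among the clusters that came next, and 3 of them were compact. The cluster chr1:209113-215498, with 3 CG, 4 CHG and 1 CHH region, was covered to 76.2% by DMRs and began with a CHH region of 180 bp that ended 4 bp before a CHG region of 1311 bp. Close by, chr1:173111-182241 held 6 DMRs, among them the CHG region of 4176 bp named above, and was covered to 71.1%. The cluster chr7:147356127-147361684 held 3 CG, 3 CHG and 1 CHH region and was covered to 62.3%. None of these 3 clusters overlapped a sweep. With joins of up to 50 kb the clusters of chromosome 1 grew into a run of 22 DMRs, chr1:173111-331078, the largest at that distance.

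The other clusters of the largest 10 all held both CG and CHG regions, and 3 of the 5 held a CHH region. The cluster chr8:98909005-98927813 had 8 DMRs (3 CG, 4 CHG, 1 CHH) and was covered to 15.3%, near the value of the largest clusters. Those with 6 DMRs were chr9:36011438-36019993, chr4:91983907-91990694, chr8:99997974-100007237 and chr3:87047913-87056194, covered to between 24.6% and 56.2%. In the cluster of chromosome 3, a CG and a CHG region of 1146 bp each were shifted against each other by a single base. In chr4:91983907-91990694, a CHH region of 72 bp stood before the first CHG region and no other CHH region followed. Of the 10, 5 overlapped a sweep and 5 did not. Over all DMRs the share in sweeps was 27.7% for CG, 27.6% for CHG and 37.0% for CHH. A cluster is longer than a DMR and has more room to overlap a sweep, so the count of 5 was not set against these shares.

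The longest stretches without any DMR reached 8.01 Mb. This stretch lay near the middle of chromosome 6, chr6:75990021-83996015, and also held no DMR of the other comparisons. It was followed by chr4:23993993-31541215 (7.55 Mb), chr2:37819769-45338597 (7.52 Mb), chr10:8728127-15452317 (6.72 Mb) and chr9:40484245-47009870 (6.53 Mb). Sweeps covered between 2.53% and 10% of these 5 stretches. The other comparisons had 1 DMR each in the stretches of chromosomes 4 and 2 and none in those of chromosomes 10 and 9. Read coverage of these stretches was not analysed here, and a stretch without DMRs may be one where methylation was alike or one where few cytosines could be read.

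In all, 192 stretches over 2 Mb, 13 of them over 5 Mb, took up 579 Mb or 27.5% of the sequence. Their share ran from 20.2% of chromosome 5 to 37.8% of chromosome 1, which had 39 of them. Chromosome 1 thus had both a top window of the list and the most sequence in long empty stretches. A stretch empty in 1 context was often not empty in the others. The longest without CHH, chr1:80852458-115465164 (34.6 Mb), held 15 CG and 21 CHG DMRs. The longest without CG, chr3:26935891-46079565 (19.1 Mb), held 8 CHG and 2 CHH DMRs, and its CHG regions included the longest of the list. The longest without CHG, chr4:9975736-23993609 (14.0 Mb), held 1 CG and 3 CHH DMRs.

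CG and CHG regions often coincided. Of 1545 CG DMRs, 769 (49.8%, 47.3 to 52.3%) overlapped a CHG DMR by at least 1 bp, with 42.2% on chromosome 5 and 59.5% on chromosome 9 as the extremes. The CHG regions were more often alone, as 761 of 2372 (32.1%, 30.2 to 34.0%) overlapped a CG DMR. The coincidence was close to all or none, since only 3 CG regions lay within 200 bp of a CHG region without touching one. Within 10 kb the share of CG regions with a CHG neighbour was 55.6%.

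Where they overlapped, the CHG region was usually the wider. Of 777 overlapping pairs, the CG region lay wholly inside the CHG region in 292 (37.6%), the CHG region inside the CG region in 95 (12.2%), and the ends were staggered in 390 (50.2%). The overlap had a median of 342 bp and covered a median of 97.6% of the CG region and 78.5% of the CHG region. The CHG region was the longer in 541 pairs (69.6%). These widths, too, may depend on how closely the cytosines of each context lie, which was not tested. Starts differed by a median of 57 bp and ends by 50 bp. Overlapping regions were also longer than others, with a median of 402 bp for CG regions with a CHG overlap and 298 bp for those without. For CHG regions these medians were 522 bp with a CG overlap and 435 bp without. A long region has more room to overlap, so this difference in length is given without a test.

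CHH regions seldom coincided with the other contexts, and most lay far from them. Of 1055 CHH DMRs, 20 (1.90%, 1.16 to 2.91%) overlapped a CG or CHG DMR, and 82 (7.77%, 6.23 to 9.56%) lay within 200 bp of one without overlap. The gap of these 82 had a median of 55.5 bp. They stood evenly on either side, with the other context before the CHH region at 41 and after it at 41, and none had one on both sides. The median distance of a CHH region from the nearest CG or CHG DMR was 138 kb, and 21.1% had a CG or CHG DMR within 10 kb. The 10 chromosomes ranged from 6.85% (chromosome 6) to 19.6% (chromosome 4) in the share of CHH regions within 1 kb of a CG or CHG region.

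**Figure D4:**
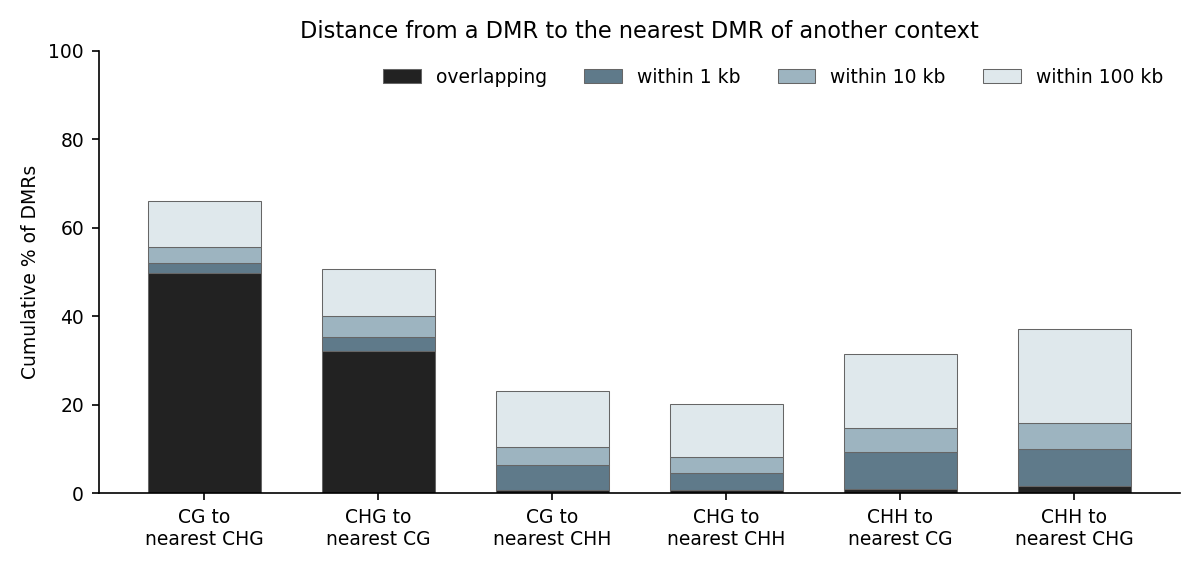
Cumulative percent of DMRs of a context that overlapped, or lay within 1, 10 or 100 kb of, the nearest DMR of another context. CG and CHG regions are mostly either overlapping or far apart (49.8% of CG regions overlap CHG), whereas CHH regions rarely overlap (1.04% with CG and 1.52% with CHG).

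Joining overlapping DMRs gave 4175 separate loci. Of these, 1606 were CHG only, 1035 CHH only, 772 CG only and 743 (17.8%) both CG and CHG. Loci with CHH and another context were few, 10 with all 3, 5 with CHG and 4 with CG. CG and CHG loci were the longest, with a median of 607 bp.

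Read in order along the chromosomes, the contexts did not follow each other in proportion to their numbers. After a CG region the next was CHG in 57.0% of cases (54.5 to 59.5%), where CHG regions were 47.7% of all. After a CHG region it was CG in 37.4% (35.5 to 39.4%), where CG regions were 31.1% of all. Both preferences were those of near neighbours, as over gaps of more than 100 kb the shares were 44.1% and 25.6%. CHH regions followed CHH regions in 30.5% of cases (27.7 to 33.4%), where they were 21.2% of all, an excess of 9.27 points. The 21.2% counts overlapping CG and CHG regions separately, and of the loci with overlaps joined 24.8% were CHH only. Over gaps of more than 100 kb, CHH followed CHH in 29.4% of cases (26.0 to 33.0%). CHH regions were then 24.9% of the next regions after any context, which leaves an excess of 4.48 points. The other contexts had a like excess of their own kind over such gaps, of 4.29 points for CG and 4.07 points for CHG.

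Counts in 1-Mb windows told of the same order. Over the 2111 windows, Pearson's r was 0.583 between CG and CHG (Spearman's rho 0.518), 0.344 between CG and CHH (0.236) and 0.264 between CHG and CHH (0.236). These describe windows that share a genome, its cytosines and the read depth, and are given without a test. All 10 chromosomes had a positive r for each pair, from 0.452 to 0.664 for CG and CHG and from 0.134 to 0.537 for CG and CHH. Of the 2111 windows, 338 held every context, 401 held CG and CHG without CHH, and 151 held CHH alone. The most CHH regions without another context were the 6 at chr5 111 to 112 Mb, and the most CG regions without CHH were the 7 at chr9 1 to 2 Mb, which came with 7 CHG regions. Of 13 windows with 5 or more CHH regions, 4 also had 5 or more of both CG and CHG.

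Sweeps between teosinte and maize gave a readout that did not enter the DMR calls, although it came from the genomes of the same populations. There were 1330 sweeps with 332 Mb, 15.8% of the sequence. CHH regions lay in them more often than the other contexts, with 390 of 1055 (37.0%, 34.0 to 40.0%). CG regions had 428 of 1545 (27.7%, 25.5 to 30.0%), and the odds ratio of CHH over CG was 1.53 (two-sided Fisher's exact test, Benjamini-Hochberg adjusted over 3 comparisons, p = 1.10e-06). CHG regions had 655 of 2372 (27.6%, 25.8 to 29.5%), and the odds ratio of CHH over CHG was 1.54 (same test, adjusted p = 1.66e-07). CHG and CG differed by -0.088 points and did not pass the test (odds ratio 0.996, Fisher's exact test, adjusted p = 0.971). These sets are not independent, since 769 of the CG regions overlapped a CHG region, and the test does not allow for this. The CHH share was above the CG share on 8 of 10 chromosomes and above the CHG share on 9 of 10.

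The position along the chromosome touched this result. Sweeps, like the DMRs, were concentrated in deciles 4 and 5, where they covered 37.0% of the sequence, against 10.5% of the other deciles. Within these 2 deciles 62.3% of CHH regions were in sweeps, against 59.3% of CG regions (odds ratio 1.14, Fisher's exact test, adjusted p = 0.438) and 55.3% of CHG regions (odds ratio 1.34, Fisher's exact test, adjusted p = 0.126), and neither difference passed. In the other 8 deciles the CHH share was 26.5%, against 16.7% for CG (odds ratio 1.80, Fisher's exact test, adjusted p = 7.24e-07) and 17.5% for CHG (odds ratio 1.71, adjusted p = 7.24e-07). Whether the odds ratios of the 2 sets of deciles differ from each other was not tested.

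Per Mb, CHH regions numbered 1.17 in sweeps and 0.375 outside, a ratio of 3.13. The ratio was 2.04 for CG regions (1.29 in sweeps and 0.630 outside) and 2.03 for CHG regions (1.97 and 0.968). Each context was above the share of the sequence on all 10 chromosomes. These values take the whole sequence as their base, although DMRs can be called only where reads map, and mappable length was not analysed here. The paper compared CG and CHG DMRs with randomly chosen mappable regions and reports that they were enriched in sweeps. Chromosome 10 had the highest share of CHH regions in sweeps, 55.1% (43.4 to 66.4%), then chromosome 4 with 49.3% and chromosome 8 with 45.6%. Of the 1330 sweeps, which covered 332 Mb in all, 897 held no DMR and 433 held at least 1. This count depends on the length of the sweeps and was not set against other stretches of the same length. The sweep with the most was chr3:73260001-79785000, with 16 CG, 19 CHG and 8 CHH DMRs in 6.53 Mb. It was followed by chr8:98015001-99060000, which spans the CHH-rich window and held 31 DMRs in 1.04 Mb, and by chr5:108600001-113150000, with 3 CG, 11 CHG and 14 CHH DMRs.

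**Figure D5:**
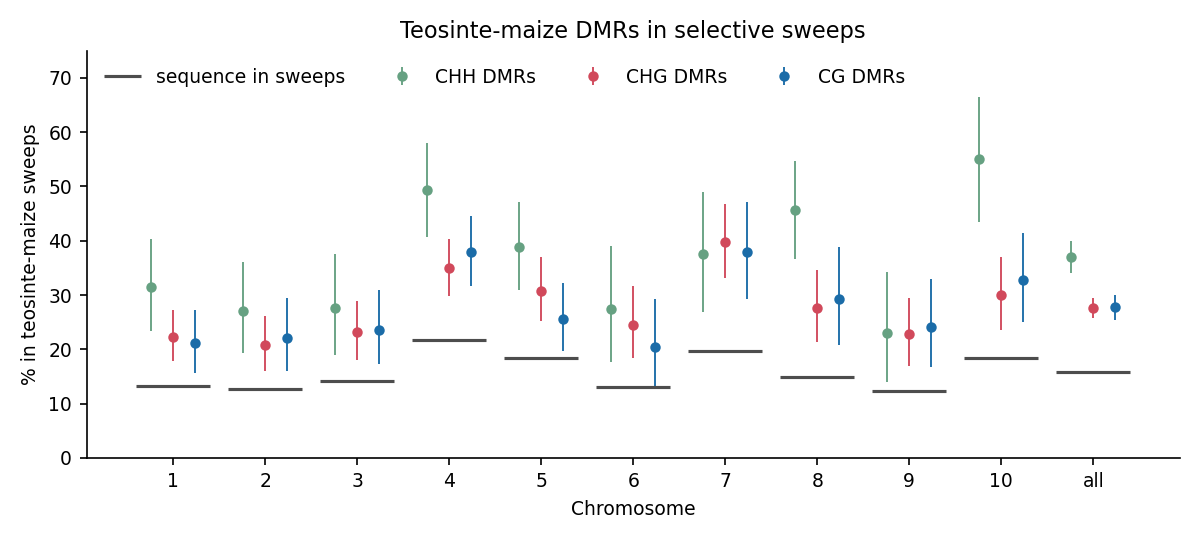
Percent of teosinte-maize DMRs of each context in teosinte-maize sweeps, by chromosome and for all chromosomes, with exact 95% binomial intervals; horizontal lines give the percent of the sequence in sweeps. Over all chromosomes the CHH share is 37.0%, against 27.6% for CHG and 27.7% for CG, and every point lies above the share of the sequence.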

How the data were processed

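WGBS reads were mapped by the authors (Bowtie2) against a B73 AGPv4 sequence in which each plant's SNPs had been placed, cytosines were extracted with Bismark, and metilene called DMRs between whole populations. BWA, Picard and GATK 4 also appear in the submitters' processing notes. The DMR table, as deposited, holds chromosome, start, end, context and comparison. The sweep table holds start, end and the deposited XP-CLR score, merged over neighbouring windows by the authors and kept for outliers, and this score was not used here. Placing SNPs limits mapping bias towards B73, and a minimum mean difference leaves out small CG and CHG shifts. Sequencing depth per plant was not analysed here, so its effect on the calls is unknown.

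Chromosome ends were taken as the largest positions in both tables, and some sweep ends written with an exponent as round numbers. The sources do not say whether DMR starts count from 0 or 1; they were taken as counted from 0, and sweep starts from 1. DMRs were assigned to windows of 1 Mb and to deciles by their midpoint, and to sweeps by an overlap of at least 1 bp. Overlap between contexts also meant at least 1 bp, and clusters join overlapping DMRs and gaps of up to 10 kb. Shares have exact 95% binomial (Clopper-Pearson) and densities exact 95% Poisson intervals. Shares were compared by two-sided Fisher's exact tests with Benjamini-Hochberg adjustment at 0.05 over 4 (contexts) or 3 (sweeps) comparisons. Regions were named by rank: the densest windows and chromosomes, the 10 largest clusters (ties by covered length), the 5 longest empty stretches, the longest empty stretch and the 3 longest DMRs of each context. Windows in which a context stood without another, the upper sweeps, single members within clusters and the densest decile of a chromosome were named after their values were seen. The members, lists and rules were chosen with earlier results of these data known. Alternatives were other windows, gaps, parts, length filters, DMRs wholly inside sweeps and sweeps of at most 1 Mb. Others were covered bases in place of counts, an origin of 1, merged neighbours and each chromosome left out. The counting steps were tested on simulated regions. No genome or annotation of AGPv4 was used here, so neither genes nor sequences are given. The versions were scipy 1.17.1 and numpy 2.4.6 for tests and counts, pandas 2.3.3 for tables and matplotlib 3.10.9 for figures, under Python 3.11.15.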

Additional observations from a re-analysis of the deposited data

How the results depend on the processing

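A tested value counted as the same if it stayed on its side of the threshold and, where it passed, kept its direction. Its size was not judged. An untested value counted as the same within the interval of the reported value or, without one, within a fixed factor of it. The odds ratio of CHG over CG in sweeps, which never passed, ran from 0.852 to 1.06 and counted as the same throughout. By these rules, of 194 values recomputed under an alternative, 165 were the same, 27 moved and 2 no longer passed the test. These 2 were the shares in sweeps within deciles 4 and 5, an alternative chosen after the data had been seen, with odds ratios of 1.14 for CHH over CG (Fisher's exact test, adjusted p = 0.438) and 1.34 for CHH over CHG (adjusted p = 0.126). With DMRs of a context closer than 100 kb merged, also chosen after the data had been seen, they were 1.41 (adjusted p = 0.000444) and 1.41 (adjusted p = 0.000441), and without the window with the most CHH regions 1.49 (adjusted p = 7.24e-06) and 1.49 (adjusted p = 2.12e-06). The cause was not tested. Leaving out each chromosome gave 1.46 to 1.60 and 1.46 to 1.63. With only the sweeps of at most 1 Mb, the odds ratios were 1.40 for CHH over CG (Fisher's exact test, adjusted p = 0.00244) and 1.33 for CHH over CHG (adjusted p = 0.00245).

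Of the 27 that moved, all but 2 did so with the size of a window, part or gap, and these 2 with the contexts or lengths kept. Windows of 0.5, 2 and 5 Mb without a DMR made up 73.3%, 33.4% and 8.69% for CG, 65.0%, 21.0% and 2.82% for CHG, 81.1%, 47.5% and 18.5% for CHH and 49.3%, 9.18% and 0.939% for all contexts. With 20 parts of a chromosome in place of 10 the densest part exceeded the sparsest 2.48 times in CG, 2.29 times in CHG and 3.67 times in CHH. Gaps of 1, 5, 50 and 100 kb put 42.7%, 48.3%, 61.7% and 69.1% of DMRs in clusters, and CG and CHG regions alone 55.0%. The largest cluster held 22 DMRs at 50 kb and 28 at 100 kb. Among DMRs of at least 100 bp, 9.92% of CHH regions lay within 1 kb of another context. In windows of 0.1 and 5 Mb, r was 0.155 and 0.519 between CG and CHH and 0.132 and 0.446 between CHG and CHH.

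No paired analysis was possible because each comparison has 1 list of regions called over whole populations, with no value for a plant. The lists hold called regions only, and neither the share of tested regions that were called nor the effect of read depth is known, and the p-values treat neighbouring regions as independent.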
